A study of Mus musculus with 5 samples.

Results

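The Dectin-1 lectin gene cluster of mouse chromosome 6 holds genes of C-type lectin-like receptors and one scavenger receptor, and PU.1 signal over it was compared between conventional and plasmacytoid dendritic cells. The members were 8 genes, namely Clec7a, Clec9a, Clec12a, Clec12b, Clec1a, Clec1b, Clec2d and Olr1, taken by name and position. No signal value entered the rule, but members and rule were chosen with earlier results of these data known. Every deposited window inside a member's gene span in mm10, or within 20 kb of it, was taken. Neighbouring windows no more than 100 bp apart made up a site, and each site was given once, to the member whose span lay nearest. This gave 19 sites made of 121 windows, out of 67233 sites in the genome, and all 19 were tested. Sites are called here by the gene and a number that runs along the chromosome.

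The libraries came from dendritic cells grown in culture with Flt3L from a mouse strain labelled C56BL/6. PU.1 was precipitated from conventional dendritic cells (cDCs) in 2 libraries and from plasmacytoid dendritic cells (pDCs) in 2 libraries, with the T-20 antibody. A single input library, made without antibody, came from cDCs. The labels do not say whether replicates came from separate cultures, so the p-values measure the spread between these libraries only.

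PU.1 is an ETS-family transcription factor that binds purine-rich DNA around a GGAA core and is needed for dendritic cell development. The genes of this cluster lie near each other in the natural killer gene complex. Dectin-1 (Clec7a) binds fungal beta-glucan, DNGR-1 (Clec9a) binds actin filaments exposed by dead cells and marks the cross-presenting cDCs, and both signal through the kinase Syk. Clec1b encodes the podoplanin receptor of platelets, which also signals through Syk. Clec12a and Clec12b encode inhibitory receptors that recruit phosphatases, Clec1a a receptor for fungal melanin, Clec2d a ligand of natural killer cell receptors, and Olr1 the scavenger receptor for oxidised low-density lipoprotein.

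Counts are reads per 10 bp window. Totals over all windows were 11034858 and 11388554 in cDC replicates 1 and 2, 8099633 and 6896416 in pDC replicates 1 and 2, and 2776490 in the input. The sites of the cluster held 5761 and 5872 counts in the cDC libraries, 3922 and 3250 in the pDC libraries and 301 in the input. The library of pDC replicate 2 stood apart, with 18.0% of its counts in 146 windows of at least 1000 input counts each, against 9.15% to 10.5% in the other PU.1 libraries. The pDC pair also differed more than the cDC pair, with a mean chi-square of 2.16 against 1.396 over windows with at least 20 counts in the pair. Levels are in CPM, the counts for every 1000000 of the TMM-adjusted library size. The log2 folds are pDC minus cDC with their standard error (SE), and n = 2 libraries per cell type throughout. PU.1 signal at marker loci is no RNA level, and it followed the labels only in part. Of all tested gene loci, 9.89% were higher in cDCs and 10.5% in pDCs (edgeR adjusted p below 0.05). Of 8 pDC marker loci, 3 were higher in pDCs (Siglech, Bst2, Ly6d) and 5 were not called. Of 8 cDC marker loci, 3 were higher in cDCs (Cd8a, Zfp366, H2-Ab1) and 2 in pDCs (Sirpa, Clec10a). Among 12 marker loci of other cells, 3 were higher in pDCs (Pax5, Ebf1, Mpo), 9 were not called and 0 had no counts. Summed over those 12, cDC libraries had 609 and 599 CPM against 651 and 691 CPM for pDC libraries, and the part of other cells in the values below was not tested.

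Promoters are shown first because the results below turn on whether PU.1 signal lay at them. RefSeq promoter sequences (GRCm38.p6, the assembly of mm10) were matched for 7 members and hold 250 bases before to 50 bases after a transcription start. A site lay over the promoter of Clec12a, Clec9a, Clec7a and Clec2d, and none lay over that of Clec12b, Clec1b or Olr1. The 250 bases before the start are given 5′ to 3′ on the gene's strand, for 3 promoters under a site and, for contrast, for Olr1. They are Clec12a (chr6:129349994-129350243, plus strand), Clec9a (chr6:129408612-129408861, plus strand), Clec7a (chr6:129472786-129473035, minus strand) and Olr1 (chr6:129507166-129507415, minus strand). Capitals mark GAGGAA on either strand, a core of the PU.1 motif that was added after the values were seen.
Clec12a: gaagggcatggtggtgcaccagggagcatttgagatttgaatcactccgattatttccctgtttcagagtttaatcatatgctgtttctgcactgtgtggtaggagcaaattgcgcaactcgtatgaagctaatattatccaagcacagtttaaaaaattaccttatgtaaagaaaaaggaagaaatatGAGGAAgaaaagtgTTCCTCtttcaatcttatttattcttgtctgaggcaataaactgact
Clec9a: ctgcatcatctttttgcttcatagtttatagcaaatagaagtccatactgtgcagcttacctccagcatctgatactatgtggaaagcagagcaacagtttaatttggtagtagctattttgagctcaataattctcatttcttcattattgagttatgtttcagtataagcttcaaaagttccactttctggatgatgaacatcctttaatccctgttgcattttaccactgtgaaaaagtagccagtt
Clec7a: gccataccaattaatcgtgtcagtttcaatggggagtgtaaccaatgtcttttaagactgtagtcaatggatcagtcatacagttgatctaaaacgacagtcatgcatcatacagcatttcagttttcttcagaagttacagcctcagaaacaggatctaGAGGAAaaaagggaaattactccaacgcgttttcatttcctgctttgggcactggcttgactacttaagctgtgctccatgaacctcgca
Olr1: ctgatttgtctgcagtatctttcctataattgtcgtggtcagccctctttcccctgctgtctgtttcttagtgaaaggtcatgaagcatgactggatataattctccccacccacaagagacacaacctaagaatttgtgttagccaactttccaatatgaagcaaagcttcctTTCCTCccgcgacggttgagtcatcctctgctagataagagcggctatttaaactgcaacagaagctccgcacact

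Both strands of all 8 member promoter sequences were searched, and distances run to the first base of a match on the gene's strand. The longer PU.1 motif GAGGAAGT had no match in any of them, against 3.20% of all 32851 promoters of this length. Clec12a held GAGGAA at 61 and, on the other strand, at 47 bases before its start, a motif that 28.3% of promoters hold. It also held TGANTCA (AP-1, its own reverse complement, 7.81% of promoters) at 213 bases and TGTGGT (RUNX, 16.8%) at 155 bases before the start. Clec7a held GAGGAA at 90 bases and GGAANNGAA, the start of the composite element of ETS and IRF factors (8.24%), at 59 bases before its start. Olr1 held TGANTCA at 60, GAGGAA at 76 and GGAANNGAA at 81 bases before its start, and the last 2 matches overlap. Clec9a, Clec2d, Clec12b and Clec1b held none of the 5 motifs. GAGGAA lies within GAGGAAGT, and a match is a description of letters only.

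Each of the 8 genes had at least 1 site. Of the 19 sites, 15 lay inside a member's span, 4 lay outside every span, and 4 lay over the promoter of their gene. The RefSeq span of Clec12b (129375513 to 129427634) runs past the start used for its promoter and covers Clec1b and Clec9a, so 5 sites lay inside 2 spans. Clec12a-1 (129333951 to 129334160) lay 15.6 kb from Clec12a and nearer, at 2144 bp, to a gene outside the set, Clec2m. The annotation used gives spans without exons or introns, so positions are given only as inside a span or by distance. In mean CPM over the 4 PU.1 libraries, 12 sites were above the median of all tested sites, and the medians were 11.6 CPM for the cluster and 7.26 CPM for all.

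**Figure D1:**
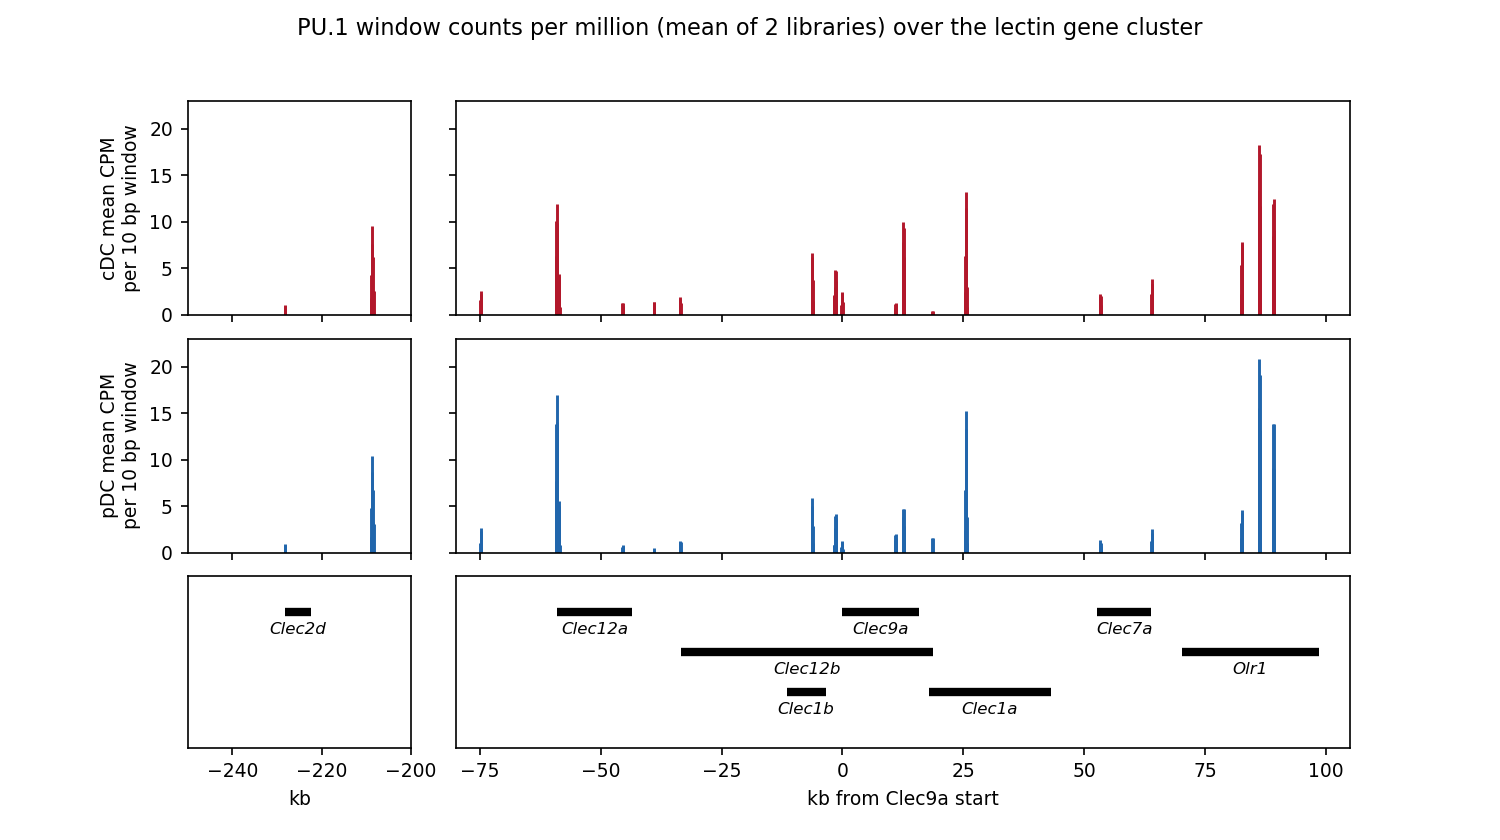
Mean CPM per 10 bp window in cDCs (red, upper row) and pDCs (blue, middle row), each the mean of 2 libraries, against the distance in kb from the start of the Clec9a span, with gene spans as bars in the lower row. The stretch around Clec2d is drawn in a panel of its own. The tallest windows in both cell types were those of Olr1-2, at 18.3 CPM in cDCs and 20.8 CPM in pDCs.

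Signal above the input was measured in a fit of all 5 libraries and means a fold of at least 2 with an edgeR adjusted p below 0.05. By that rule 10 sites were above the input in cDCs, where 44.9% of all sites were, and 9 in pDCs, where 42% of all sites were. Olr1-1 was above it in cDCs only, with a fold over input of 4.30 in cDCs and 2.32 in pDCs (edgeR adjusted p = 0.00153 and 0.0509). These counts depend on the input, which held 74.6% of its counts in those 146 windows. With library sizes taken without those windows, 5 sites were above the input in cDCs (7.83% of all sites) and 4 in pDCs (8.35%). The 5 were Clec2d-2, Clec9a-3, Clec1a-1, Olr1-2 and Olr1-3, and Clec9a-3 was the one that passed in cDCs only. Its fold over input in that setting was 5.63 in cDCs and 2.45 in pDCs (edgeR adjusted p = 0.00433 and 0.105). Having no replicate, the input took its spread from the PU.1 libraries in this fit.

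Between the cell types, Clec9a-3 was higher in cDCs, Clec12b-3 was higher in pDCs, and 17 of 19 sites were not called. Over all 63600 tested sites 6.29% were higher in cDCs and 7.85% in pDCs (4003 and 4995 sites, or 5207 and 4177 when scaled by library size without TMM). Both cDC libraries lay above both pDC libraries at 10 sites, against 29.3% of all sites, and both pDC libraries above both cDC libraries at 5 sites, against 28.4%. The groups overlapped at 4 sites. Without pDC replicate 2, 3 sites were higher in cDCs (Clec9a-3, Clec9a-1, Olr1-1) and 2 in pDCs (Clec12b-3, Clec12a-2), against 14.8% and 14.9% of all sites. The median log2 fold of the 19 sites was -0.31, and that of all sites was -0.00058, with 12 of 19 below 0. Of the 9 sites not above the input, 7 had both cDC libraries above both pDC libraries, and of the 10 above it, 3 did. This split rests on the input rule above, and the matching shares over all sites were not computed. No trait of weak sites was tested.

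**Figure D2:**
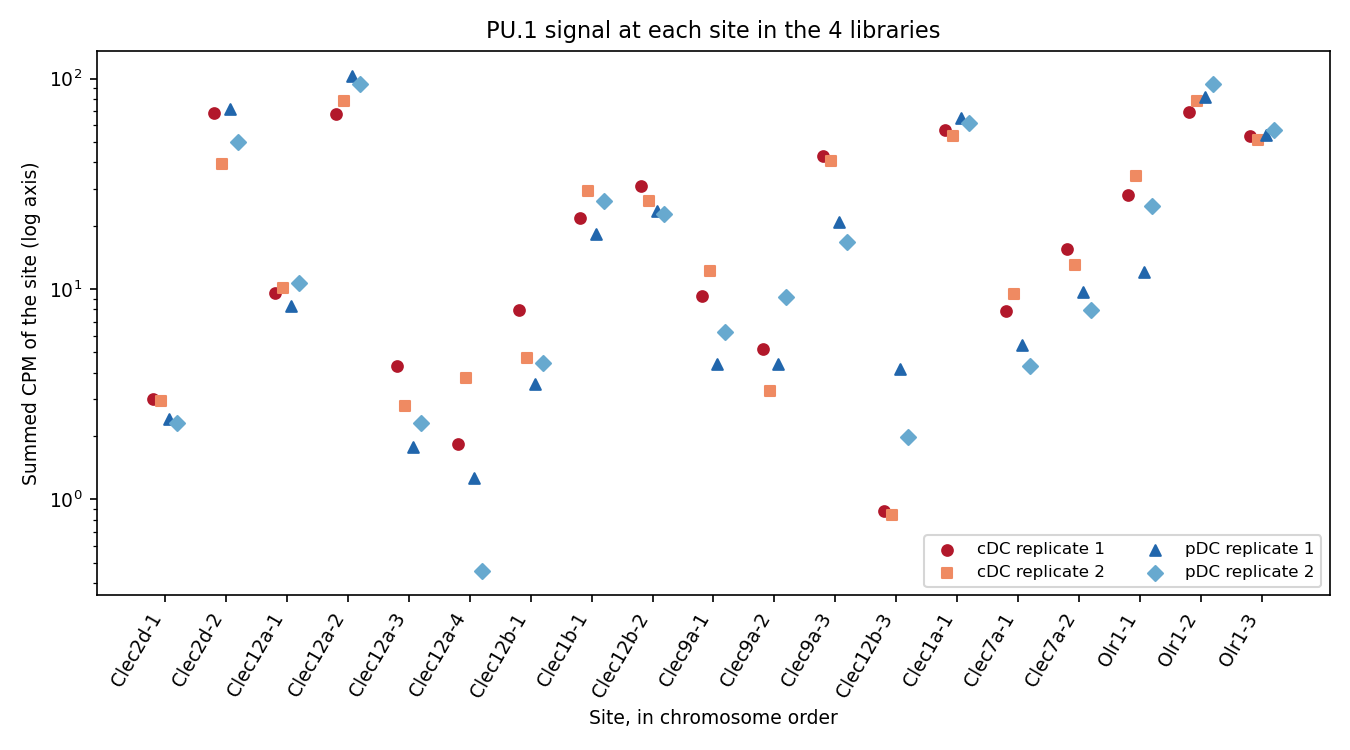
Summed CPM (log axis) of each of the 19 sites in the 4 PU.1 libraries, in chromosome order, with circles and squares for cDC replicates 1 and 2 and triangles and diamonds for pDC replicates 1 and 2. Levels ran from 0.459 CPM at Clec12a-4 in pDC replicate 2 to 103 CPM at Clec12a-2 in pDC replicate 1, and the symbols of Clec9a-3 form 2 separate pairs.

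The called cDC site lay in Clec9a, the dead-cell receptor gene, and not at its promoter. Clec9a-3 (chr6:129421301-129421610) sat inside the gene span, 12.6 kb after the transcription start, and also inside the long span of Clec12b. It had 490 and 481 counts in cDC replicates 1 and 2, 164 and 109 in pDC replicates 1 and 2, and 6 in the input. Scaled to CPM, the cDC libraries had 43.0 and 40.5 and the pDC libraries 20.7 and 16.7, so both cDC libraries stood far above both pDC libraries. The log2 fold was -1.16 ± 0.24 (SE), 2.23-fold higher in cDCs (edgeR adjusted p = 0.00655). Its call ended without cDC replicate 1 (log2 fold -1.12, edgeR adjusted p = 0.0995), without cDC replicate 2 (-1.21, 0.0516) and against a minimum fold of 1.5 (0.0596).

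Tested window by window, the same site differed along its whole length. All 7 of its windows were higher in cDCs, where 6.39% of all tested windows were, with log2 folds between -2.02 ± 0.64 and -0.98 ± 0.27. These windows make up the site and can share reads, so they are no separate support for its call. The first window, with the log2 fold of -2.02, and the last passed the count filter through the cDC libraries only. A comparison inside each library needs no scaling between libraries. The counts of Clec9a-3 were 0.759 and 0.759 times those of Clec1a-1, a site 13.0 kb away, in the cDC libraries. In the pDC libraries they were 0.320 and 0.270 times those of Clec1a-1. Clec1a-1 itself had the higher CPM in the pDC libraries, so these ratios also hold its difference. Against Clec1b-1, 18.8 kb away and with overlapping groups, the ratios were 1.98 and 1.39 in cDCs and 1.14 and 0.634 in pDCs. As a share of all counts of the cluster, Clec9a-3 took 8.51% and 8.19% in cDCs and 4.18% and 3.35% in pDCs.

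Signal at the Clec9a promoter itself was weak. Clec9a-1 (chr6:129408651-129408910), whose highest window lay 107 bp before the start, in the sequence printed above, had 9.30 and 12.2 CPM in cDCs and 4.42 and 6.27 CPM in pDCs. The groups did not overlap, but the log2 fold of -1.01 ± 0.40 was not called (edgeR adjusted p = 0.111), and the site was not above the input in either cell type. Its last window, at 129408901 to 129408910, was higher in cDCs by itself (log2 fold -1.93 ± 0.66, edgeR adjusted p = 0.0485). With 2 and 3 pDC counts that window passed the count filter through the cDC libraries only, so its call is no support for the site. Without pDC replicate 2 the site passed the threshold (-1.28, edgeR adjusted p = 0.0166), whereas it lay at -0.76 (0.225) without pDC replicate 1 and -0.81 (0.570) without cDC replicate 2. Clec9a-2 (chr6:129419751-129419910), 10.97 kb after the start, had 5.18, 3.28, 4.42 and 9.18 CPM in cDC replicates 1 and 2 and pDC replicates 1 and 2, so the groups overlapped there.

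At Clec7a, the Dectin-1 gene, the stronger of 2 sites lay over the promoter and neither was called. Clec7a-2 (chr6:129472751-129472960) had 177 and 155 counts in cDCs, 77 and 52 in pDCs and 5 in the input. Scaled, these were 15.5 and 13.0 CPM in cDCs and 9.72 and 7.96 CPM in pDCs, without overlap. The log2 fold of -0.69 ± 0.34 did not pass (edgeR adjusted p = 0.203). Its highest window, 70 bp before the start, lay between the GGAANNGAA match (129472836 to 129472844) and the GAGGAA match (129472870 to 129472875) of the printed promoter. Clec7a-1 (chr6:129462101-129462310), 10.6 kb after the start, had 7.90 and 9.42 CPM in cDCs and 5.43 and 4.28 CPM in pDCs (log2 fold -0.83 ± 0.42, edgeR adjusted p = 0.208). Clec7a-2 was above the input at 8.17-fold in cDCs and 4.71-fold in pDCs, or 2.31-fold and 1.39-fold with library sizes without the 146 windows, which did not pass. Clec7a-1 was not above it.

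Clec1b, the podoplanin receptor gene, had a single site with overlapping groups. Clec1b-1 (chr6:129402501-129402760), 5.33 kb after the start and also inside the Clec12b span, had 21.8 and 29.1 CPM in cDCs and 18.2 and 26.3 CPM in pDCs. The log2 fold was -0.20 ± 0.28 (edgeR adjusted p = 0.706), and replicate 2 was the higher one in both cell types.

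The inhibitory receptor gene Clec12a carried the site with the highest mean CPM of the cluster (85.9 CPM over the 4 libraries), at its promoter. Clec12a-2 (chr6:129349551-129350360) was 810 bp wide and had 67.9 and 78.4 CPM in cDCs and 103 and 94.1 CPM in pDCs. Both pDC libraries were thus higher, but the log2 fold of 0.43 ± 0.19 was not called (edgeR adjusted p = 0.147). It passed without pDC replicate 2 (0.50, edgeR adjusted p = 0.0122). The input had 71 counts there, the highest of the 19 sites, so that the fold over input was 2.97 in cDCs and 3.72 in pDCs, and 0.835 and 1.10 with library sizes without the 146 windows.

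Inside Clec12a-2 there were 2 summits. The taller, at 129349701 to 129349710, had 11.4 and 12.4 CPM per window in cDCs and 20.3 and 13.5 CPM in pDCs. It lay 539 bp before the start used for the promoter and outside the printed sequence. The RefSeq span of Clec12a begins at 129349783, nearer to this summit than that start is. The lower one, the window at 129350201 to 129350210, lay 39 bp before the start used for the promoter. This lower window overlapped the GAGGAA match at 129350197 to 129350202. It had 3.86 and 4.96 CPM in cDCs and 4.42 and 6.73 CPM in pDCs, so that pDC replicate 1 fell between the cDC libraries. Neither summit window was called (log2 folds of 0.53 ± 0.24 and 0.34 ± 0.30). Another window, at 129349801 to 129349810, was higher in pDCs (0.91 ± 0.27, edgeR adjusted p = 0.0226). It was the only one of 107 tested windows of the cluster to be so, against 7.96% of all windows. The windows of the called pDC site, Clec12b-3, had too few counts to be tested.

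The other Clec12a sites were weaker. Clec12a-1 had 9.56 and 10.1 CPM in cDCs and 8.33 and 10.7 CPM in pDCs, a log2 fold of -0.05 ± 0.36. It was above the input on 1 input count. Clec12a-3 (chr6:129363351-129363460), 13.2 kb after the start, had 4.30 and 2.78 CPM in cDCs and 1.77 and 2.29 CPM in pDCs. Clec12a-4 (chr6:129369851-129369910), 4.55 kb outside the span, had 21 and 45 counts in cDCs and 10 and 3 in pDCs. Its log2 fold of -1.66 ± 0.64 was the lowest of the cluster and was not called (edgeR adjusted p = 0.101). It passed without pDC replicate 1 (-2.57, edgeR adjusted p = 0.0240), and lay at -1.15 (0.196) without pDC replicate 2 and -1.07 (0.644) without cDC replicate 2.

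Clec12b, the second inhibitory receptor gene, held the called pDC site, and only Clec12a-4 had a lower mean CPM. Clec12b-3 (chr6:129427451-129427510) was 2 windows wide and also lay inside the Clec1a span. Clec12b is on the minus strand, and the site lay 0.154 kb from the upstream end of its span. It was 42.0 kb before the start used for the promoter. It had 10 and 10 counts in cDCs, 33 and 13 in pDCs and 4 in the input, which is 0.877 and 0.841 CPM against 4.16 and 1.99 CPM. The groups did not overlap, and pDC replicate 1 was the highest. Neither cDC library reached the level of the count filter, so the site entered the test through its pDC libraries only. It was thus tested because of the group in which it was called higher. The log2 fold was 1.84 ± 0.58 (edgeR adjusted p = 0.0472), and it lay at 1.22 (0.252) without pDC replicate 1 and at 2.27 (0.00127) when pDC replicate 2 was left out. The site was not above the input in either cell type, and its call ended in 6 of the 13 alternative settings that gave a value, among them the DESeq2 Wald test (adjusted p = 0.165).

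Its strongest site by level, Clec12b-2 (chr6:129407051-129407610), lay 1.45 kb from Clec9a-1 and had 30.9 and 26.2 CPM in cDCs and 23.5 and 22.6 CPM in pDCs. The log2 fold of -0.31 ± 0.25 was not called (edgeR adjusted p = 0.468). Its main summit was alike in level, with 4.91 and 4.54 CPM per window in cDCs and 4.29 and 3.98 CPM in pDCs. A smaller summit at 129407151 to 129407160 had 2.63 and 1.598 CPM in cDCs and 0.757 and 0.765 CPM in pDCs. The window beside it, at 129407101 to 129407110, was higher in cDCs (log2 fold -1.67 ± 0.56, edgeR adjusted p = 0.0438). With 6 and 3 pDC counts this window passed the count filter through the cDC libraries only. With 7 windows of Clec9a-3 and 1 of Clec9a-1 it made 9 windows of the cluster that were higher in cDCs. Clec12b-1 (chr6:129375201-129375360), 153 bp outside the span, had 7.98 and 4.71 CPM in cDCs and 3.53 and 4.44 CPM in pDCs (log2 fold -0.67 ± 0.47).

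**Figure D3:**
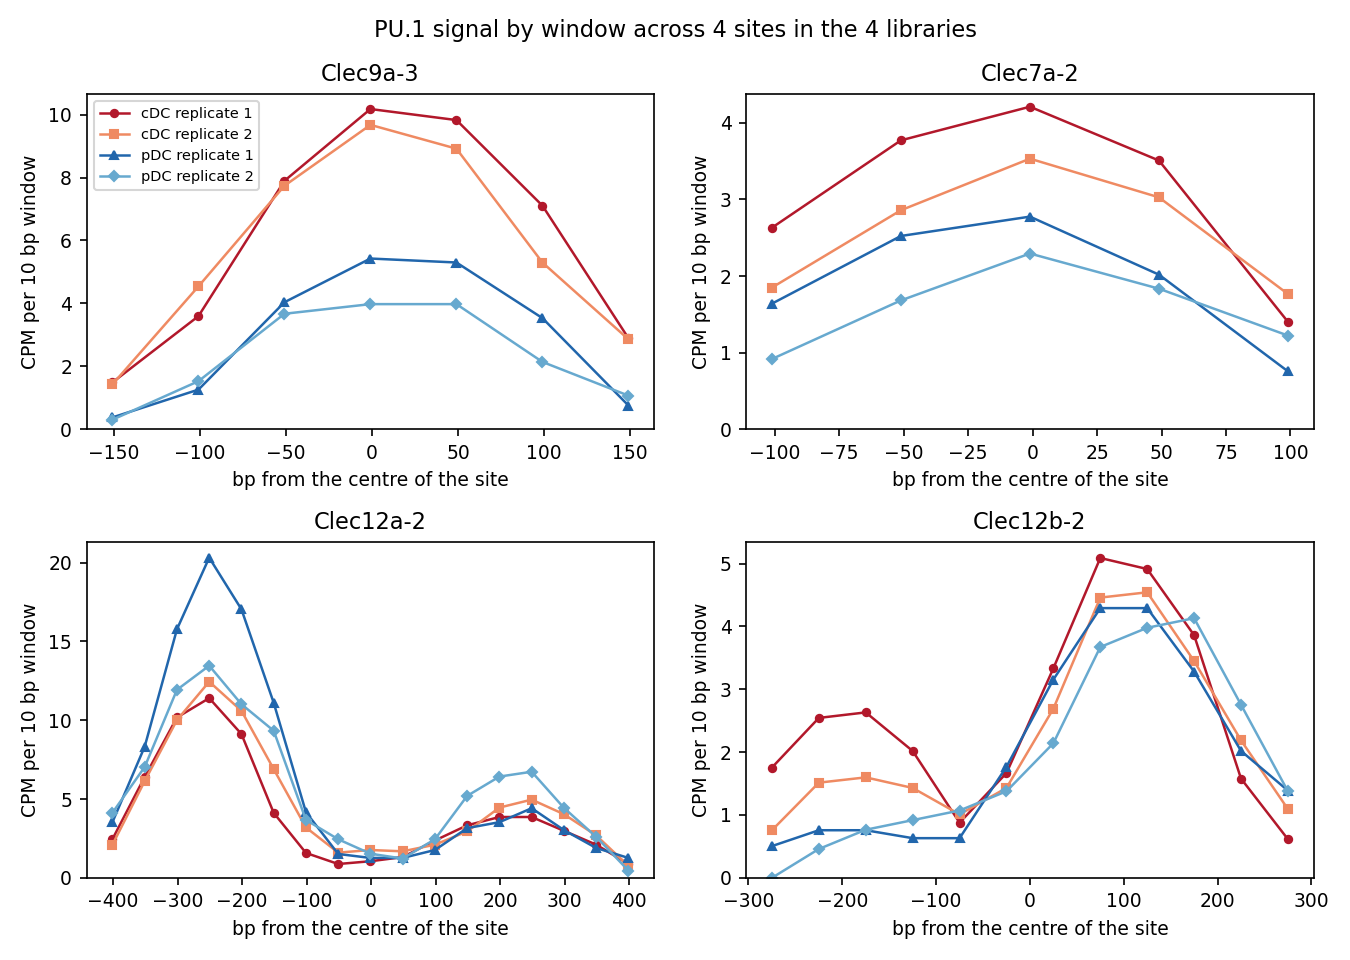
CPM per 10 bp window against the distance in bp from the centre of the site, for Clec9a-3, Clec7a-2, Clec12a-2 and Clec12b-2, with 1 line for each PU.1 library. The 2 cDC lines of Clec9a-3 lie above the pDC lines in all 7 windows, whereas at Clec12b-2 the cDC lines stand apart on the left summit and not on the right one.

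Clec1a, the melanin receptor gene, had a single strong site, and its level was close between the cell types. Clec1a-1 (chr6:129434251-129434610), inside the span, had 56.7 and 53.3 CPM in cDCs and 64.7 and 61.7 CPM in pDCs. The pDC libraries were the higher ones, and the log2 fold was 0.20 ± 0.20 (edgeR adjusted p = 0.550). It was 9.31-fold above the input in cDCs and 9.92-fold in pDCs, or 2.62-fold and 2.93-fold with library sizes without the 146 windows, which also passed.

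For Clec2d, the ligand gene, the strong site lay outside the gene. Clec2d-2 (chr6:129199951-129200510), 13.4 kb beyond the span, had 68.6 and 39.4 CPM in cDCs and 71.4 and 49.9 CPM in pDCs. Replicate 1 was higher than replicate 2 in both cell types, and the groups overlapped (log2 fold 0.17 ± 0.26, edgeR adjusted p = 0.728). Clec2d-1 (chr6:129180651-129180760), at the promoter, had 2.98 and 2.94 CPM in cDCs and 2.40 and 2.29 CPM in pDCs and was below the input, at 0.658-fold and 0.485-fold (edgeR adjusted p = 0.496 and 0.246). With library sizes without the 146 windows it was significantly below the input, at 0.186-fold and 0.143-fold (edgeR adjusted p = 0.0285 and 0.0148). In that setting Clec9a-1, Clec12b-1 and Clec12b-2 in pDCs and Clec9a-2 in cDCs were also below it at an adjusted p under 0.05. That setting takes 74.6% of the counts out of the input's library size and far less out of the PU.1 ones. It therefore lowers the folds over input in general, and these values are no trait of the named sites. The share of all sites below the input was not computed.

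Olr1, the scavenger receptor gene, had 3 sites within its span and none at its promoter. Olr1-2 (chr6:129494951-129495260), 12.1 kb after the start, had 69.5 and 78.5 CPM in cDCs and 81.9 and 94.1 CPM in pDCs. This was the second strongest site of the cluster in mean CPM, and the pDC libraries were higher without a call (log2 fold 0.25 ± 0.19, edgeR adjusted p = 0.433). Olr1-3 (chr6:129497851-129498160) had 53.6 and 50.9 CPM in cDCs and 53.8 and 57.2 CPM in pDCs (0.09 ± 0.20). Olr1-1 (chr6:129491351-129491610) went the other way, with 28.1 and 34.6 CPM in cDCs and 11.99 and 24.8 CPM in pDCs.

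At Olr1-1 the pDC libraries were far apart, and the log2 fold of -0.78 ± 0.32 was not called (edgeR adjusted p = 0.121). Without pDC replicate 2 it passed at -1.38 (edgeR adjusted p = 1.10e-05), and without pDC replicate 1 it lay at -0.32 (0.415). Within each library, the counts of Olr1-1 were 0.404 and 0.441 times those of Olr1-2 in cDCs and 0.146 and 0.263 times in pDCs. Olr1-2 itself had the higher CPM in the pDC libraries, so these ratios also hold its difference.

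**Figure D4:**
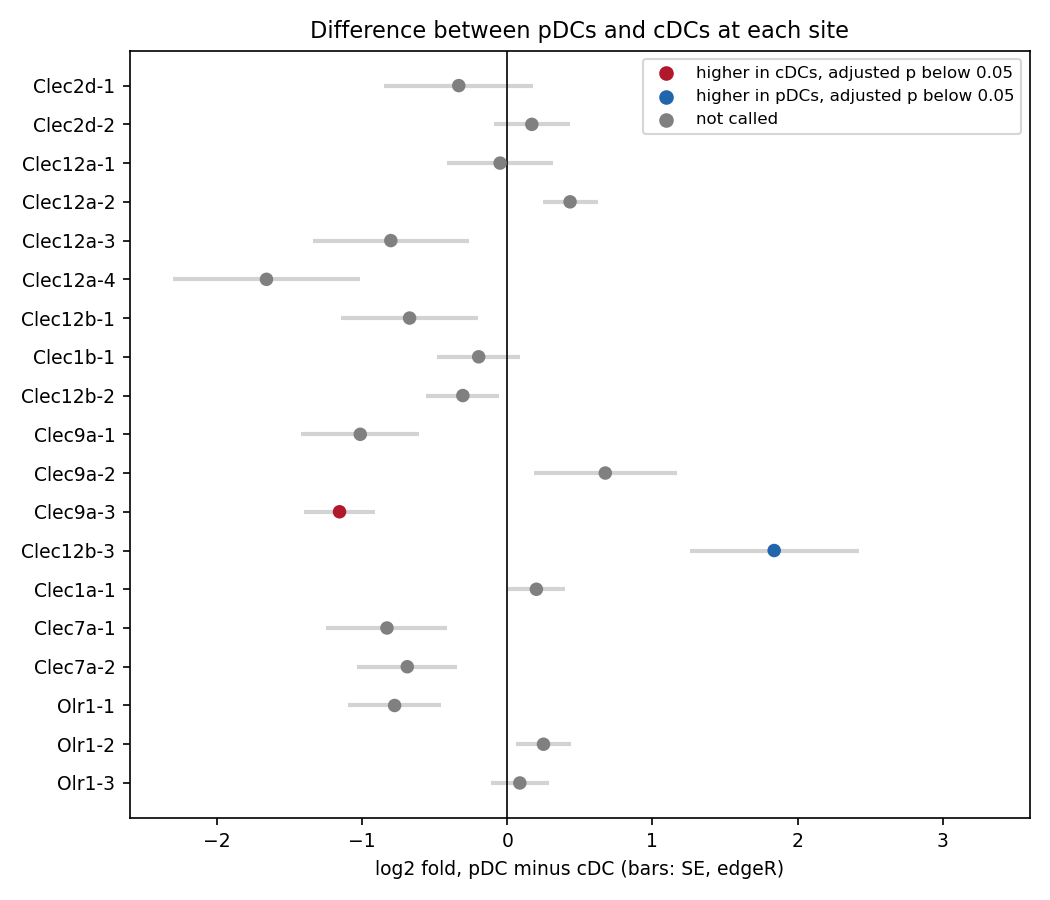
Log2 fold (pDC minus cDC) of each of the 19 sites in chromosome order, with bars of 1 SE from the edgeR fit, red for the site higher in cDCs, blue for the site higher in pDCs and grey for the 17 sites not called. The points run from -1.66 at Clec12a-4 to 1.84 at Clec12b-3.

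Summed over whole loci, 2 of 8 members, Clec7a and Clec1b, were higher in cDCs. A locus here is a gene span with 20 kb on each side. By edgeR 0 members were higher in pDCs, also at an unadjusted p under 0.05 and by DESeq2. At an unadjusted p under 0.05, 5 were higher in cDCs, where 16.2% of all loci were. These 5 share all their windows with other members, so they are not independent. Of 16408 tested loci, 9.89% were higher in cDCs and 10.5% in pDCs (1622 and 1728 loci, or 1730 and 991 with library-size scaling). The Clec7a locus had 52.3 and 57.3 CPM in cDCs and 25.8 and 38.2 CPM in pDCs (log2 fold -0.78 ± 0.21, edgeR adjusted p = 0.0104). The Clec1b locus had 112 and 112 CPM in cDCs and 67.7 and 83.6 CPM in pDCs (-0.57 ± 0.15, edgeR adjusted p = 0.00875). In both, the cDC libraries lay close together and the pDC libraries apart from each other and below them.

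These loci share windows with their neighbours. All windows of Clec7a, Clec1b, Clec9a, Clec12b and Clec1a, the loci with an unadjusted p under 0.05, also belong to another member's locus. Without the windows of Clec9a-3, an alternative chosen after seeing the data, the Clec1b locus was not called (-0.29, edgeR adjusted p = 0.276). Without those of Olr1-1, chosen likewise, the Clec7a locus stayed called (-0.77, edgeR adjusted p = 0.0451). The Clec7a call ended without cDC replicate 1 (-0.85, edgeR adjusted p = 0.0809) and without cDC replicate 2 (-0.71, 0.172), and so did the Clec1b call (-0.57 each, 0.147 and 0.143). Neither call was made by the gene span alone (-0.87 for Clec7a and -0.24 for Clec1b), with flanks of 10 kb (-0.78 and -0.39) or 50 kb (-0.10 and -0.05), or against a minimum fold of 1.5.

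The other 6 member loci were not called. Clec9a lay at -0.25 ± 0.12 and Clec12b at -0.29 ± 0.12 (edgeR adjusted p = 0.145 and 0.0885), and by the gene span alone both passed, at -0.92 and -0.54 (edgeR adjusted p = 0.00824 and 0.0184). With flanks of 50 kb, Clec9a was the 1 member locus called (-0.34, edgeR adjusted p = 0.0368). The spans of Clec9a and Clec12b both hold Clec9a-3. Clec1a lay at -0.29 ± 0.12, Clec12a at 0.24 ± 0.13, Clec2d at 0.11 ± 0.21 and Olr1 at -0.06 ± 0.12. In order of mean CPM over the 4 libraries the loci ran from Olr1 (178 CPM), Clec12b (165), Clec9a (155) and Clec1a (138) to Clec12a (105.3), Clec1b (93.7), Clec2d (59.8) and Clec7a (43.4). These sums grow with the number of windows and are no level per length. The median log2 fold of the 8 loci was -0.27, and that of all loci was 0.0016.

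**Figure D5:**
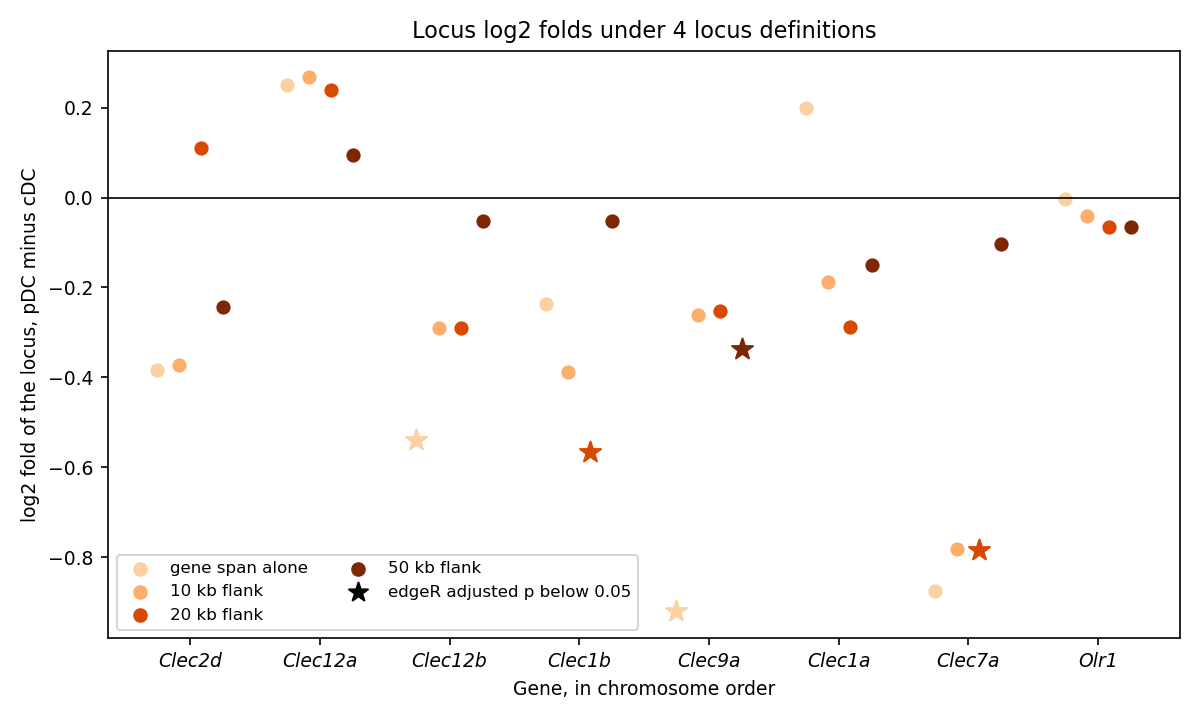
Log2 fold (pDC minus cDC) of each member locus under 4 definitions, from the gene span alone (lightest) to flanks of 10, 20 and 50 kb (darkest), with a star where the edgeR adjusted p was below 0.05. Clec9a and Clec12b have a star for the span alone, Clec7a and Clec1b for 20 kb and Clec9a for 50 kb, and Clec2d and Clec1a lie on both sides of 0.

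The locus with the highest mean CPM was Olr1, with 177 and 187 CPM in cDCs and 155 and 194 CPM in pDCs, where pDC replicate 2 was above both cDC libraries. Among 16398 loci that share no window with the cluster, the nearest in level, by the Euclidean distance of the 4 values of log2(CPM + 0.5), were Cdhr3 (0.106), Sbf2 (0.131) and Klf3 (0.135). In all, 66 loci had a distance within 0.25.

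Loci of Dectin-1 and C-type lectin signalling did not share one direction. Of 24 tested, 17 were not called, 2 were higher in cDCs and 5 in pDCs, with a median log2 fold of 0.089. Over all tested loci, 9.89% were higher in cDCs and 10.5% in pDCs. Higher in cDCs were Vav3, a guanine nucleotide exchange factor (-0.56 ± 0.10, edgeR adjusted p = 0.000803), and Ptpn11, the phosphatase SHP-2 (-0.64 ± 0.13, 0.00187). Higher in pDCs were Plcg2, the phospholipase downstream of Syk (0.36 ± 0.11), Vav2 (0.30 ± 0.10), Fcer1g, the signalling adaptor chain of Fc receptors (0.43 ± 0.12), Pik3cd (0.47 ± 0.11) and Ptpn6, the phosphatase SHP-1 that inhibitory lectins recruit (0.42 ± 0.11). The edgeR adjusted p of these 5 lay between 0.00402 and 0.0333. Syk (0.07 ± 0.10) and its adaptor Card9 (0.03 ± 0.20) were not called.

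Of 27 listed genes, mostly neighbours in the natural killer gene complex, 21 loci were tested, with a median log2 fold of -0.23. They are not all separate from the cluster or from each other. The Tmem52b locus holds the windows of Olr1-2 and Olr1-3, and Klrk1 and Klrc3 had the same counts. Among the 21, Klrg1 and Clec2l lie 6.90 Mb and 90.5 Mb from the nearest member, and neither was called. Over all tested loci, 9.89% were higher in cDCs and 10.5% in pDCs. Of the 21, 4 were higher in cDCs, namely Klri1 (-0.47 ± 0.14), Klri2 (-0.38 ± 0.12), Klrb1b (-0.64 ± 0.15) and Clec2e (-0.69 ± 0.14). Their edgeR adjusted p lay between 0.00134 and 0.0330, and Klri1 and Klri2, inhibitory or activating receptor genes of natural killer cells, are neighbours whose flanks overlap. Klrb1a was higher in pDCs (2.26 ± 0.63, edgeR adjusted p = 0.0154) on 4 and 12 counts in cDCs and 33 and 17 in pDCs. Its cDC counts alone would not have passed the count filter. The other 16 loci were not called.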

How the data were processed

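The values are read counts per 10 bp window on a 50 bp grid, deposited by the authors without normalisation for 329996 windows, and each sample's counts equalled those of the table of the whole series. Subread 1.4.4 and mm10 are named per the submitters' processing notes, single-end reads are 49 bp, and how windows were chosen is not given in the sources used here. A read can fall in several windows, so totals over windows are not the depth.

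Counts were summed by site, over windows at most 100 bp apart with a split at 5000 bp, or by protein-coding gene locus, with RefSeq GRCm38.p6 spans and GenomicRanges 1.54.1. Sums over the whole genome were tested with the edgeR 4.0.16 quasi-likelihood test (R 4.3.3, limma 3.58.1) after filterByExpr at a minimum count of 10, with TMM, no term but cell type, and Benjamini-Hochberg adjustment at a threshold of 0.05. The code was run on simulated counts with known changes as a check. The SE is the one implied by the F statistic. DESeq2 1.42.0 served as an alternative. For 2 libraries against 2 the smallest two-sided p of an exact permutation test is 0.333, so no value was tested alone.

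Named are all 8 members, all called sites, each member's strongest site, called loci of the lists and the 3 loci most like the strongest member locus, with the remaining member sites added. Members, lists and rules were chosen with earlier results of these data known.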

Additional observations from a re-analysis of the deposited data

How the results depend on the processing

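In 16 alternative settings the number of sites higher in cDCs, 1 as reported, became 2 with a replicate block (8.42% of all sites). There Olr1-1 joined (log2 fold -0.84, edgeR adjusted p = 0.0388). The number became 0 against a minimum fold of 1.5 (2.23% of all sites). Leaving out 1 library at a time it lay between 0 and 3, with 0 when either cDC replicate was left out (1.95% and 2.38% of all sites), 2 when pDC replicate 1 was (7.15%) and 3 when pDC replicate 2 was (14.8%), so the shares over all sites moved too. The number higher in pDCs, 1 as reported, became 0 with library-size scaling (6.57% of all sites), with the DESeq2 Wald test (6.99%) and against a minimum fold of 1.5 (3.99%). It also became 0 at a mean of at least 30 counts (9.16%), by the highest window (9.39%) and by single windows combined with the Simes method (8.5%). Each of these last settings left Clec12b-3 untested for its low counts. The number higher in pDCs also moved when single libraries were left out. Loci higher in cDCs, 2 as reported, became 0 against a minimum fold of 1.5 and with flanks of 10 kb, 1 with flanks of 50 kb (Clec9a, neither of the 2 reported loci) and 1 without Clec9a-3, and lay between 0 and 6 without single libraries, at 0 without either cDC replicate (2.47% and 2.94% of all loci) and 6 without pDC replicate 2 (19.4%), where Clec9a, Clec12b, Clec1a and Olr1 joined. Over all loci, 1.05% were higher in cDCs against a minimum fold of 1.5 and 8.4% with flanks of 10 kb. The shares were 10.4% with flanks of 50 kb and 9.87% without Clec9a-3. Sites above the input fell from 10 to 5 with library sizes without the 146 windows. A fit without 1 library assumes that the lone library of its cell type varies like the other pair.

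The sign turned for some results that were not called as reported. Olr1-3 lay at -0.022 with library-size scaling, which moved the median of all sites to -0.11, and Clec12a-1 at 0.0083 by its highest window. Without single libraries Clec2d-2 lay between -0.19 and 0.61, Clec12a-1 between -0.23 and 0.14, Clec1b-1 between -0.48 and 0.065, the Clec2d locus between -0.23 and 0.54 and the Olr1 locus between -0.24 and 0.091. The Clec2d locus lay at -0.38 by the gene span alone, -0.37 with flanks of 10 kb and -0.24 with 50 kb, the Clec1a locus at 0.20 by the gene span alone, and the Olr1 locus at 0.049 without Olr1-1. The cause of these changes was not tested. The log2 fold of Clec9a-3 lay between -1.31 and -1.01 in all 16 settings.

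Same-numbered cDC and pDC libraries did not deviate together (correlation 0.0193 over 63600 sites), and the labels name no shared culture or batch, so the numbers were not taken as pairs. With the replicate block, 5354 sites of the genome were higher in cDCs and 5642 in pDCs, against 4003 and 4995. The pDC libraries had the lower totals and there was 1 input, and Clec12a-4 and Clec12b-3 had no more than 45 counts in any library, so at such sites a difference may not be detectable.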
